A study of Mus musculus with 8 samples.

Results

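Short interspersed elements (SINEs) are short retrotransposons that lack coding sequence, and their transcripts were counted here in mouse embryonic stem cells (mESCs) that had lost SETDB1, had G9a/GLP activity inhibited, or both. The members are all rows of the count tables whose identifier, written as name, family and class, ends in the class SINE. This rule, which uses no measured value, gave 35 subfamilies of the 1153 transposable element subfamilies and 25215 rows in all. They fell into 6 families as the files name them, with 16 subfamilies in the Alu family, 5 in B2, 4 each in B4, ID and MIR, and 2 in Deu. MER131, whose class is written with a question mark, had 5 to 20 counts per library and was left out.

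RNA-seq of poly(A) RNA was performed with 2 libraries per condition in the #33-6 mESC line, which carries a conditional Setdb1 allele in all 4 conditions. Untreated cells of this line served as WT. Cells given 2 µM UNC0642, an inhibitor of the G9a/GLP H3K9 methyltransferases, for 3 days are called UNC cells below. Setdb1 was deleted by 800 nM 4-OHT for 5 days in what are called KO cells. Cells with both treatments are called KO/UNC cells, and their sample labels give 2 days of 800 nM 4-OHT and then 3 days of 2 µM UNC0642, whereas the general treatment description gives 5 days of 4-OHT. No vehicle control is described, so an effect of 4-OHT itself and the loss of SETDB1 cannot be told apart.

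SINEs are transcribed by RNA polymerase III from promoters inside the element, and they move with the reverse transcriptase of LINE-1 elements. The Alu family of the mouse annotation holds the B1 elements and their PB1 and FAM relatives, which descend from the RNA of the signal recognition particle. B2 and ID elements descend from tRNAs, B4 elements join an ID-like and a B1-like part, and MIR and Deu elements are old families shared by many mammals. SINE copies also lie in introns and untranslated regions, so poly(A) libraries hold SINE sequence inside long transcripts made by RNA polymerase II, and the counts do not separate these copies from elements transcribed on their own. SETDB1 deposits H3K9me3 and G9a/GLP deposit H3K9me2, marks best known in mESCs for the silencing of endogenous retroviruses.

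The internal promoter that tRNA-derived SINEs share is seen in Bc1, a noncoding RNA gene whose start is closely related to ID elements. Its first 50 transcribed bases, on the plus strand of GRCm38.p6 at chr7:144914470-144914519, lie in the exon of the gene and are printed from the RefSeq promoter table, with the match to the A box of RNA polymerase III promoters in capitals.
Bc1: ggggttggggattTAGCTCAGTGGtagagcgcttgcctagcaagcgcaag
The A box consensus was searched by name on both strands of the same window of 32851 genes. It matched once in Bc1, at bases 14 to 24 of the gene strand, and at least once in 3.12% of all windows on the gene strand and in 5.66% on either strand. The match is a description of letters and not of bound factors. Bc1 was barely covered in the poly(A) libraries, with 6 and 16 counts in WT cells, 15 and 11 in UNC cells, 24 and 6 in KO cells, and 6 and 17 in KO/UNC cells. The conditions overlapped, and none of the comparisons with WT cells was called (edgeR adjusted p of 0.954 or higher).

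Library totals ranged from 11702590 to 26807807 counts. Below, a level is the count per 1000000 after scaling by the TMM method of edgeR, called normalized counts. Setdb1 had 169 and 127 normalized counts in WT cells, 130 and 86.4 in UNC cells, 47.3 and 51.0 in KO cells, and 61.1 and 34.1 in KO/UNC cells, so every library given 4-OHT lay below every other one. The labels do not say which part of the gene is deleted. In edgeR, its log2 fold change to WT cells was -1.59 (SE 0.44, adjusted p = 0.181) in KO cells and -1.64 (SE 0.44, adjusted p = 0.0746) in KO/UNC cells, and adding the replicate number as a block gave an adjusted p of 0.0164 and 0.00593. The sum of 9 mESC markers lay between 4048 and 6471 normalized counts in all 8 libraries, and the sums of 4 fibroblast, 4 trophectoderm and 4 primitive endoderm markers were at most 17.9, 66.2 and 52.5. The sum of 4 markers of 2-cell-like cells was 7.05 and 20.1 in WT cells, 616 and 198 in UNC cells, 287 and 108 in KO cells, and 1108 and 466 in KO/UNC cells. In bulk libraries, a change in the number of such cells and a change in RNA per cell cannot be told apart, and their part in the SINE values was not tested.

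SINE sequence took a small share of every library, and this share followed the replicate number more than the condition. It was 1.66% and 1.19% of all counts in WT cells, 1.98% and 1.36% in UNC cells, 2.16% and 1.52% in KO cells, and 1.83% and 1.42% in KO/UNC cells. In normalized counts, the 4 replicate 1 libraries lay between 16910 and 24509 and the 4 replicate 2 libraries between 10823 and 13756, so these ranges did not overlap. The median over the 35 subfamilies of the log2 ratio of replicate 1 to replicate 2 was 0.69 in WT cells, 0.85 in UNC cells, 0.73 in KO cells and 0.67 in KO/UNC cells. Other repeats shared this offset, with medians of 0.84 to 1.20 for LINE and 0.54 to 0.82 for LTR subfamilies, while genes had medians of -0.15 to -0.017. Histone genes, whose mRNAs mostly lack poly(A) tails, took 0.0054% to 0.0057% of counts in replicate 1 and 0.022% to 0.049% in replicate 2. What set the replicates apart was not tested. Values are therefore given for each library. Log2 fold changes with an SE are from the fit without the replicate number as a block unless the block is named, and counts of calls are given from both fits.

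**Figure D1:**
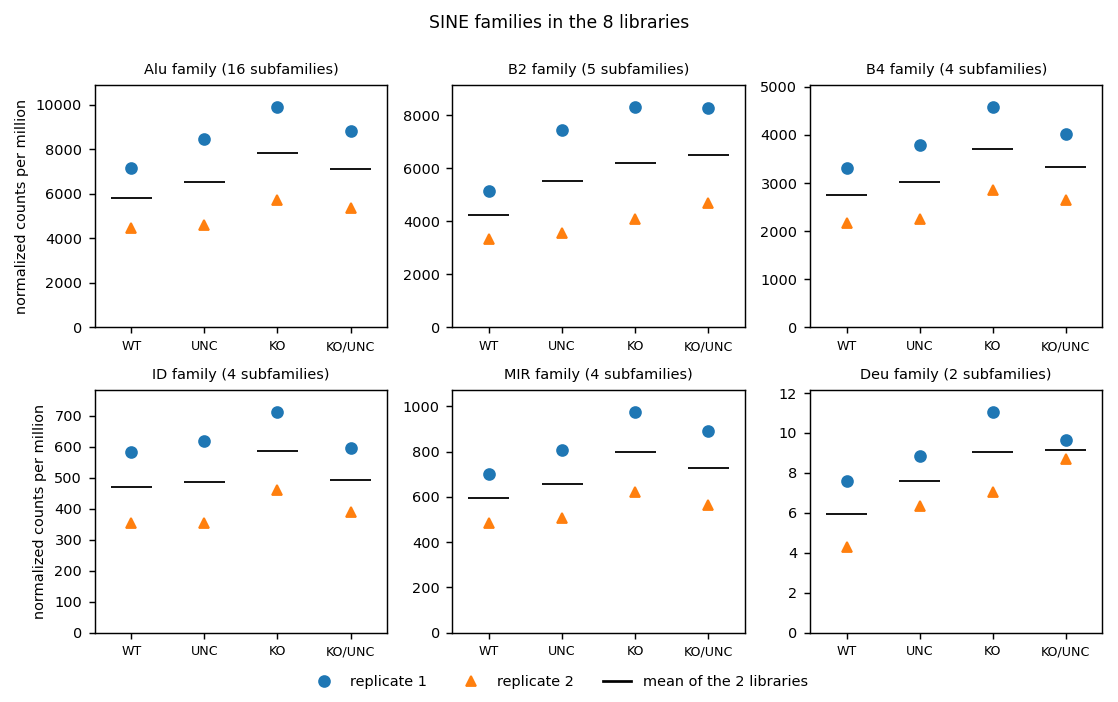
Normalized counts of the 6 SINE families (y axis, from 0) in the 4 conditions (x axis), with replicate 1 as circles, replicate 2 as triangles and their mean as a line. In all 6 families replicate 1 lies above replicate 2 in each condition.

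Among SINE families, Alu/B1 elements held the most counts, and the order was the same in all 8 libraries, namely Alu, B2, B4, MIR, ID and Deu. In WT cells the Alu family made up 41.9% ± 0.68 of SINE counts (SD, n = 2), B2 30.6% ± 0.19, B4 19.8% ± 0.39, MIR 4.32% ± 0.25, ID 3.35% ± 0.14 and Deu 0.0422% ± 0.0036. The tables give no element lengths or copy numbers, so these shares say how sequenced SINE RNA was divided and not how active a copy of each family was. Single subfamilies ranged from AmnSINE2, with 7 to 37 counts per library, to B3, with 21189 to 61107 counts. In each family the subfamily with the highest mean over all libraries was B1_Mus1 for Alu (1118 normalized counts), B3 for B2 (1778), ID_B1 for B4 (1169), MIRb for MIR (247), ID4_ for ID (223) and AmnSINE1 for Deu (6.89). B1_Mus1 and the related B1_Mm and B1_Mus2 are among the young mouse B1 subfamilies.

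The Alu family had 7162 and 4479 normalized counts in WT cells, 8444 and 4610 in UNC cells, 9914 and 5726 in KO cells, and 8821 and 5371 in KO/UNC cells. The B2 family had 5148 and 3324, 7454 and 3553, 8313 and 4092, and 8273 and 4695 normalized counts in the same order. In both families every condition overlapped WT cells, because the WT replicate 1 library lay above the replicate 2 libraries of the other conditions. The B4 family had 3308 and 2176 normalized counts in WT cells and 4021 and 2649 in KO/UNC cells. The ID family, to which Bc1 is related, had 584 and 352 in WT cells and 597 and 388 in KO/UNC cells, and the MIR family had 700 and 487 against 891 and 566. The 3 families also overlapped between these conditions. The Deu family, with 87 to 261 counts per library, had 7.58 and 4.29 normalized counts in WT cells, 8.84 and 6.33 in UNC cells, 11.1 and 7.04 in KO cells, and 9.65 and 8.68 in KO/UNC cells. Only in the last of these did both Deu values lie above both WT values.

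No SINE subfamily was called in any comparison. The largest log2 fold change to WT cells among them belonged to B2_Mm1a of the B2 family in UNC and in KO/UNC cells, and to AmnSINE1 of the Deu family in KO cells. Calls were made at an adjusted p under 0.05 in edgeR's quasi-likelihood test, with Benjamini-Hochberg adjustment over the 16245 features tested, and all 35 SINE subfamilies passed the filter on low counts. Of all features, 0% were called between UNC and WT cells, 1.12% between KO and WT cells, and 4.11% between KO/UNC and WT cells. For the 35 SINE subfamilies the count was 0 in each. An unadjusted p under 0.05 was also found for 0 of them, against 3.35%, 8.7% and 18% of all features in the 3 comparisons. With the replicate block the percentages of all features rose to 0.166%, 4.3% and 17.2%, and the SINE count stayed at 0. At an unadjusted p under 0.05, the block fit had 0 of 35 SINE subfamilies in the first comparison, 5 in the second and 5 in the third, each a smaller share than the 8.53%, 17.9% and 33.7% of all features. DESeq2 also called 0 SINE subfamilies in all 3 comparisons, and it called 0.714%, 3.47% and 9.18% of all features.

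UNC cells were compared with WT cells to ask whether inhibition of G9a/GLP alone is accompanied by more SINE RNA. H3K9me2 itself is not measured in these libraries. The SINE class as a whole had a log2 fold change of 0.22 between UNC and WT cells, with a 95% interval of -1.29 to 1.74, and of 0.19 with an interval of -0.34 to 0.72 with the replicate block. Of the 35 subfamilies, 33 had values above 0 with a median of 0.16 against -0.018 over all features, whereas only 4 were above 0, with medians of -0.24 and -0.38, when the scaling was computed from transposable element subfamilies alone. The sign of the SINE median rested on single libraries, since it was -0.12 without WT replicate 2 and -0.29 without UNC replicate 1. B2_Mm1a, a young B2 subfamily, had 582 and 463 normalized counts in WT cells and 1301 and 494 in UNC cells. In edgeR it had a log2 fold change of 0.78 (SE 0.68, adjusted p = 1), and the log2 ratio was 1.16 within replicate 1 and 0.092 within replicate 2. B2_Mm1t, its close relative, had 546 and 410 against 1047 and 448 normalized counts. Most of the B2 difference in this comparison thus lay in the replicate 1 libraries. AmnSINE1, a Deu element, had a log2 fold change of 0.34 (SE 0.52), and the subfamilies below 0 were FAM, an early B1 relative, at -0.23 (SE 0.64) and ID2 at -0.026 (SE 0.46).

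**Figure D2:**
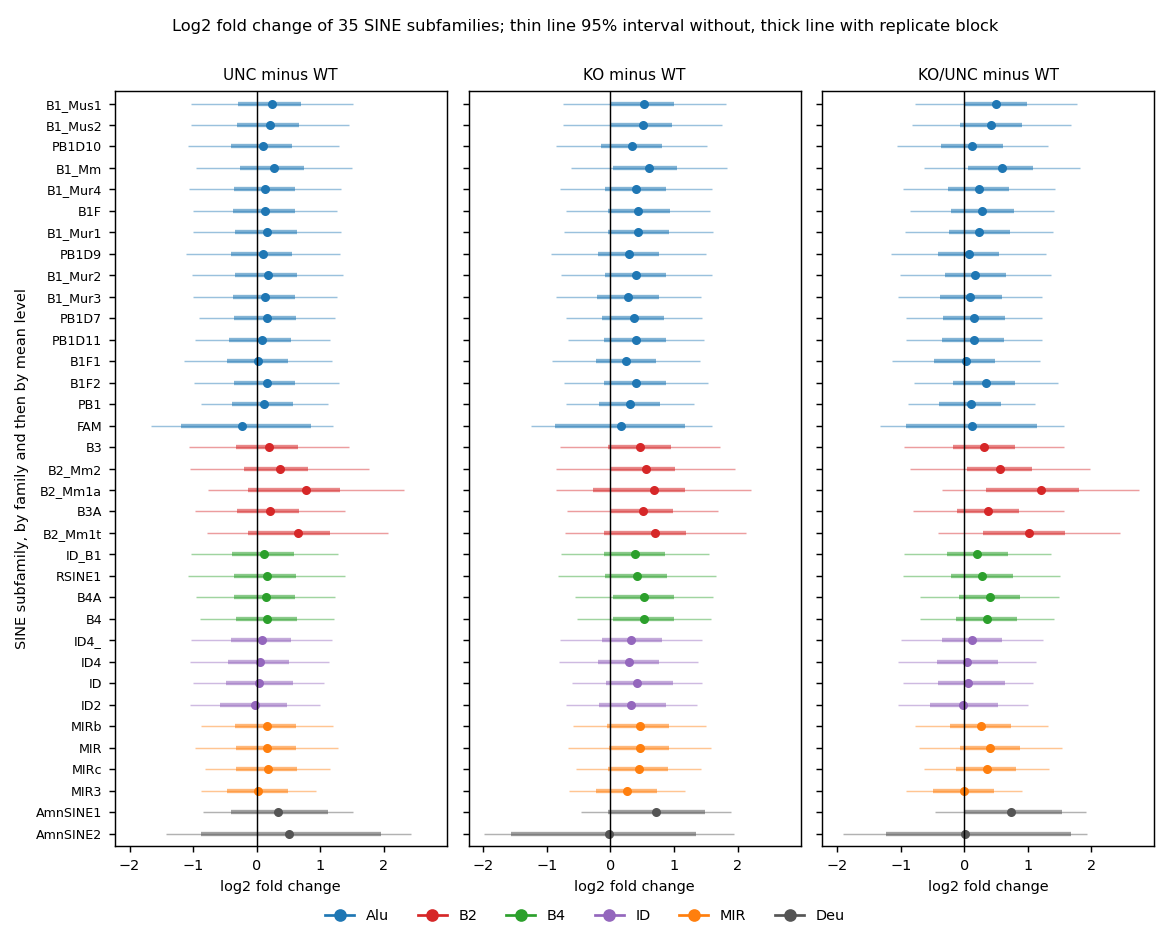
Log2 fold change to WT cells (x axis) of the 35 SINE subfamilies (y axis, coloured by family) in 3 comparisons, as points from edgeR with the 95% interval without the replicate block as a thin line and with it as a thick line. B2_Mm1a and B2_Mm1t lie farthest right in KO/UNC cells, at 1.20 and 1.02, and the thin line of every subfamily crosses 0. The thick line lies above 0 for 0 subfamilies in UNC cells, 5 in KO cells and 5 in KO/UNC cells, none of them called. With the block, 8.53%, 17.9% and 33.7% of all features had an unadjusted edgeR p under 0.05 in these comparisons.

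Loss of SETDB1 alone gave similar values across most SINE families. The SINE class had a log2 fold change of 0.46 between KO and WT cells (95% interval -1.06 to 1.98), or 1.38-fold, and of 0.44 with the replicate block (95% interval -0.089 to 0.97). The edgeR values of the families were 0.43 (SE 0.62) for Alu, 0.55 (SE 0.65) for B2 and 0.44 (SE 0.56) for B4. ID had 0.32 (SE 0.50), MIR 0.43 (SE 0.49) and Deu 0.61 (SE 0.54), and no family was called. With the replicate block the 6 families lay between 0.34 (ID) and 0.63 (Deu), with adjusted p of 0.359 to 0.520. The median over subfamilies was 0.41 against -0.022 over all features and 34 of 35 were above 0, but 0 of 35 were above 0, with medians of -0.48 and -0.87, under scaling by transposable element subfamilies alone. Without KO replicate 1 the SINE median was 0.0020.

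Within each replicate number, the comparison of KO with WT cells went the same way for most subfamilies. All 35 were higher in the replicate 1 pair and 33 in the replicate 2 pair, with medians of the log2 ratio of 0.45 and 0.35. The exceptions were B2_Mm1a, at 1.12 in replicate 1 and -0.16 in replicate 2, and AmnSINE2, at 0.047 and -0.49. These ratios used the TMM factors of the fit without the block, so they depend on the same scaling. In that fit 552 of 571 LTR, 138 of 144 LINE and 141 of 159 DNA transposon subfamilies were also above 0. Of all 16245 features, 7868 were. AmnSINE1, the subfamily with the smallest p, had 6.18 and 3.75 normalized counts in WT cells and 9.61 and 6.66 in KO cells, and edgeR gave it a log2 fold change of 0.72 (SE 0.53, adjusted p = 0.920), or of 0.73 with the block (adjusted p = 0.3005). It was the only subfamily of 35 with both KO libraries above both WT libraries, an arrangement that 17.5% of all features had. In UNC cells 0 of 35 had it, against 13.7% of all features. B4, a subfamily of the family of the same name, had 352 and 241 normalized counts in WT cells and 526 and 330 in KO cells, and its edgeR log2 fold change was 0.53 (SE 0.47, adjusted p = 0.986). With the block it was 0.52 (unadjusted p = 0.0369, adjusted p = 0.244). AmnSINE2 was the only subfamily below 0, at -0.029 (SE 0.87), with 16 and 15 counts against 34 and 7.

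Both treatments together gave the largest single SINE values, again in the B2 family. B2_Mm1a had 582 and 463 normalized counts in WT cells and 1611 and 794 in KO/UNC cells. B2_Mm1t had 546 and 410 against 1258 and 682. For both, each treated library thus lay above each WT library, which also held for AmnSINE1 (8.72 and 7.72 in the treated cells), making 3 of 35 SINE subfamilies against 22.3% of all features. B2_Mm1a had a log2 fold change of 1.20 (SE 0.69, edgeR adjusted p = 0.417, 95% interval -0.35 to 2.75). With the replicate block it was 1.07 (adjusted p = 0.0515, 95% interval 0.345 to 1.80). B2_Mm1t had 1.02 (SE 0.64, adjusted p = 0.466) and 0.94 with the block (adjusted p = 0.0522). Neither was called. These subfamilies are close in sequence, so reads that match both can be shared between their counts and the values are not independent of each other.

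The other members of the B2 family had smaller values in the same comparison. The log2 fold change was 0.56 (SE 0.63) for B2_Mm2, 0.38 (SE 0.53) for B3A and 0.31 (SE 0.56) for B3, the older members named apart from B2. B2_Mm2 had 1402 and 799 normalized counts in WT cells and 2103 and 1152 in KO/UNC cells, which overlapped. At the level of families, the edgeR log2 fold change was 0.63 (SE 0.54, adjusted p = 0.642) for Deu, which had the fewest counts. It was 0.61 (SE 0.65, adjusted p = 0.728) for B2 and 0.29 (SE 0.62) for Alu. B4 had 0.28 (SE 0.56), MIR 0.30 (SE 0.49) and ID 0.073 (SE 0.50). With the replicate block, B2 had 0.59 (95% interval 0.057 to 1.11, adjusted p = 0.123), the family with the smallest p in that fit. Deu had the higher value, 0.69 (95% interval -0.099 to 1.49, adjusted p = 0.211). The SINE class had 0.39 (95% interval -1.13 to 1.91) and 0.38 (95% interval -0.15 to 0.91) with the block. The lowest values of the comparison belonged to ID2, at -0.020 (SE 0.46), and MIR3, at -0.0057 (SE 0.40).

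The median over SINE subfamilies in this comparison was 0.23 against -0.013 over all features with 33 of 35 above 0, while under scaling by total counts 20 were above 0 with medians of 0.031 and -0.18, and under scaling by transposable element subfamilies alone 1 was above 0 with medians of -0.83 and -1.06. It was -0.044 without WT replicate 2 and -0.12 without KO/UNC replicate 1. Within replicates, 32 of 35 were higher in each replicate number and 29 in both.

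KO/UNC cells were compared with KO cells to ask whether G9a/GLP inhibition changed SINE RNA once SETDB1 was lost. By the sample labels, but not by the general treatment description, KO/UNC cells also had fewer days of the deleting drug. If the labels hold, an effect of UNC0642 and one of this shorter exposure cannot be told apart in this comparison. Here too 0 of 35 were called by edgeR, edgeR with the block or DESeq2, against 0%, 0.129% and 0.659% of all features. An unadjusted p under 0.05 was found for 0 in both edgeR fits, against 4.58% of all features and 10.7% with the block. The SINE class had a log2 fold change of -0.076 (95% interval -1.59 to 1.44), of -0.062 with the block (95% interval -0.59 to 0.47), and of 0.077 when the scaling was computed from SINE subfamilies only. Of the subfamilies 5 were above 0 and the median was -0.17 against -0.014 over all features, and it was 0.22 without KO replicate 1 and 0.15 without KO/UNC replicate 2. Within replicates, 27 subfamilies were lower in both numbers and 2 were higher in both. The 2 were B2_Mm1a, with log2 ratios of 0.35 and 0.94, and B2_Mm1t, with 0.15 and 0.68. B2_Mm1a had 1261 and 414 normalized counts in KO cells, so the conditions overlapped, and edgeR gave it a log2 fold change of 0.52 (SE 0.68, adjusted p = 1.00). The lowest values were found in ID (-0.35, SE 0.46), ID2 (-0.35, SE 0.46) and MIR3 (-0.27, SE 0.40).

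**Figure D3:**
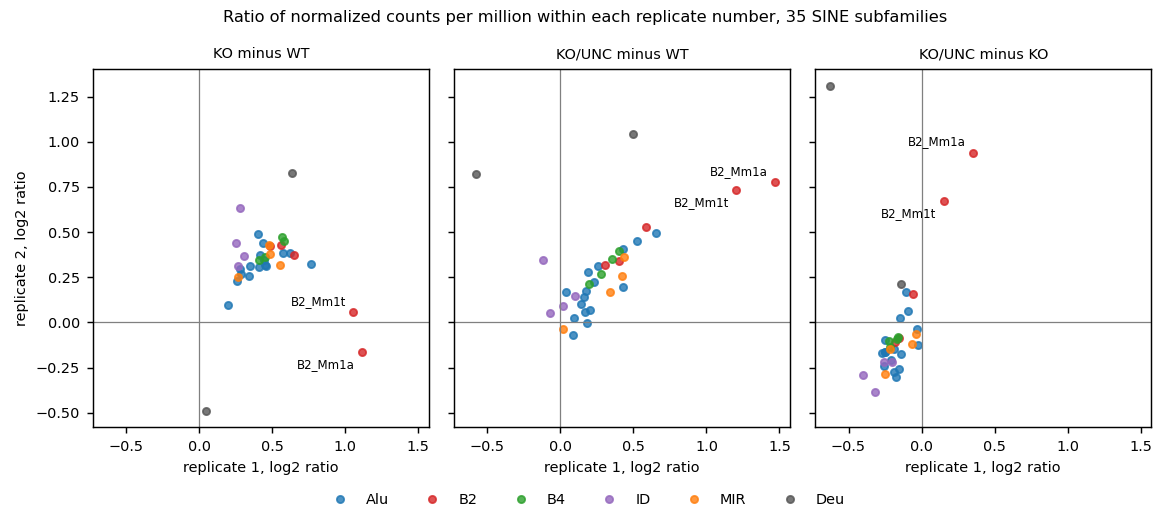
Log2 ratio of normalized counts between conditions within replicate 1 (x axis) and within replicate 2 (y axis), 1 point per SINE subfamily coloured by family. B2_Mm1a and B2_Mm1t stand to the right at 1.12 and 1.05 in replicate 1 for KO minus WT but near 0 in replicate 2. Both subfamilies lie above 0 on both axes for KO/UNC minus KO.

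The effect of SETDB1 loss was also compared in the presence of UNC0642, between KO/UNC and UNC cells. Of the 35 subfamilies, 0 were called by edgeR (1.16% of all features), 0 with the block (4.65%) and 0 by DESeq2 (3.51%). An unadjusted p under 0.05 was found for 0 in both edgeR fits, against 9.07% of all features and 18.9% with the block. The SINE class had a log2 fold change of 0.16 (95% interval -1.35 to 1.68), and of 0.19 with the block (95% interval -0.34 to 0.72). The median log2 fold change was 0.11 with 28 above 0, against -0.10 with 10 above 0 under scaling by total counts and -0.58 with 0 above 0 under scaling by transposable element subfamilies alone. AmnSINE1 had 0.40 (SE 0.52), B2_Mm1a 0.42 (SE 0.68) and B2_Mm1t 0.38 (SE 0.63). AmnSINE2 had -0.49 (SE 0.86), and B1_Mur3, a B1 subfamily, and MIR3 had -0.045 (SE 0.50) and -0.034 (SE 0.40). None of these named values exceeded its SE without the block. With the block, B2_Mm1a had 0.49 (SE 0.32, adjusted p = 0.460) and B2_Mm1t 0.43 (SE 0.28, adjusted p = 0.461).

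Whether UNC0642 acted differently with and without SETDB1 was tested as the interaction term. In this term, the difference between UNC and WT cells was subtracted from that between KO/UNC and KO cells. The latter difference may include the shorter exposure to the deleting drug given in the labels, so the term does not isolate UNC0642. For SINE subfamilies 0 of 35 were called by edgeR, edgeR with the block or DESeq2, and of all features 0% were called in both edgeR fits and 0.00616% in DESeq2. An unadjusted p under 0.05 was found for 0 SINE subfamilies in both edgeR fits, against 0.751% of all features and 2.33% with the block. The median was -0.31 and FAM, at 0.18 (SE 0.90), was the 1 subfamily above 0. The smallest p values belonged to ID at -0.39 (SE 0.64), PB1D7, a proto-B1 subfamily, at -0.38 (SE 0.67) and B1_Mur2 at -0.41 (SE 0.75). The SINE class had -0.30 with a 95% interval of -2.45 to 1.84, and 0.016 when the scaling was computed from SINE subfamilies only. With the replicate block it had -0.25 with a narrower 95% interval of -0.999 to 0.494.

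SINEs and other transposable elements moved apart in their shares of the repeat counts. SINEs made up 44.8% and 43.1% of transposable element counts in WT cells, 36.2% and 34.5% in UNC cells, 18.4% and 16.5% in KO cells, and 10.7% and 12.4% in KO/UNC cells. No condition overlapped another in this share, and the SD between the 2 libraries of a condition was 1.18 to 1.36 percentage points. All transposable elements together took 3.70% and 2.77% of counts in WT cells and 17.1% and 11.4% in KO/UNC cells. LTR elements, which include the endogenous retroviruses, went from 1.09% and 0.921% to 9.12% and 6.73% of all counts, and LINEs from 0.618% and 0.417% to 5.39% and 2.74%. The SINE share of all counts stayed between 1.19% and 2.16% in all 8 libraries. With 2 libraries against 2, an exact permutation test of such shares cannot go below p = 0.333 (two-sided), so these values are given as a description.

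**Figure D4:**
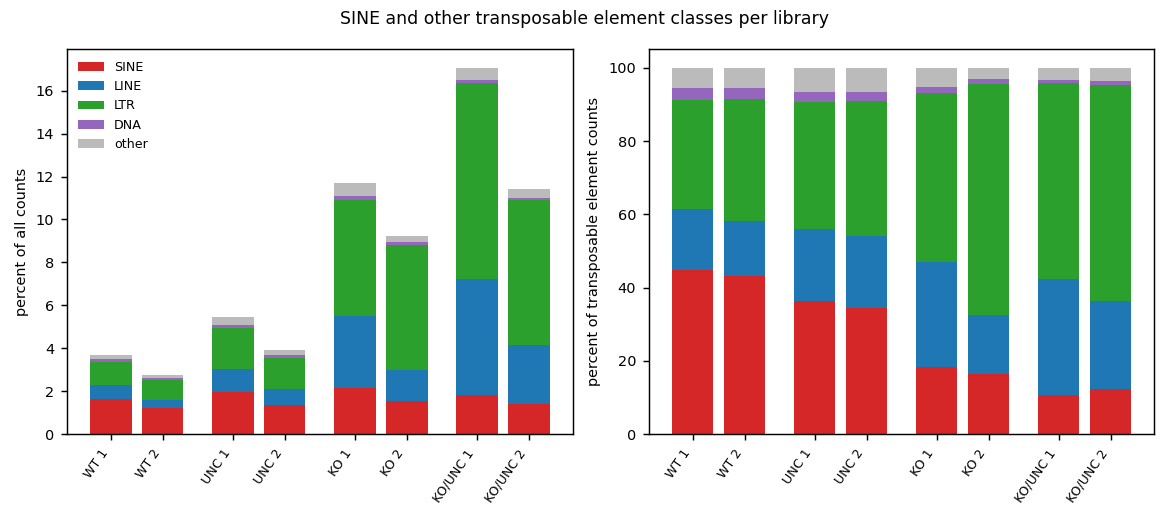
Counts of SINE, LINE, LTR, DNA and other transposable element classes in each of the 8 libraries as stacked bars, in percent of all counts on the left and of transposable element counts on the right. The SINE segment on the right shrinks from 44.8% and 43.1% in WT cells to 10.7% and 12.4% in KO/UNC cells, while on the left it stays between 1.19% and 2.16%.

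In the same fit the other classes had more called members. Between KO/UNC and WT cells, 98 of 571 LTR, 12 of 144 LINE and 2 of 159 DNA transposon subfamilies were called higher. With the block these counts were 296, 64 and 17. Of all features, 4.11% were called in either direction, and 17.2% with the block, so DNA transposons had a smaller share in both fits. Median log2 fold changes without the block were 1.38, 0.92 and 0.51, beside 0.23 for SINE subfamilies and -0.061 for genes. Between KO and WT cells, 45 LTR, 1 LINE and 0 DNA transposon subfamilies were called higher, and 134, 45 and 5 with the block. Of all features, 1.12% were called in either direction, and 4.3% with the block. The medians were 1.18, 0.80 and 0.62 beside 0.41. Between UNC and WT cells none was called in these classes by either edgeR fit. DESeq2 called 4 LTR subfamilies and 0 LINE and DNA transposon subfamilies, against 0.714% of all features. The medians were 0.39, 0.39 and 0.28 beside 0.16. At an unadjusted p under 0.05 in edgeR, that comparison had 19 LTR, 3 LINE and 1 DNA transposon subfamilies without the block. In each class this was a share no higher than the 3.35% of all features. With the block it had 70, 32 and 5, against 8.53% of all features. This was a larger share for LTR and LINE subfamilies and a smaller one for DNA transposons. The difference between classes was not tested.

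The makeup of SINE counts, which does not depend on the scaling of a library, differed between the 2 WT and the 2 KO/UNC libraries. The B2 family took 30.4% and 30.7% of SINE counts in WT cells, 35.3% and 31.5% in UNC cells, 33.9% and 29.7% in KO cells, and 36.6% and 34.3% in KO/UNC cells. The share of the Alu family was 42.4% and 41.4% in WT cells and 39.0% and 39.3% in KO/UNC cells, and that of the ID family 3.45% and 3.25% against 2.64% and 2.84%. For the 3 families the WT and the doubly treated libraries did not overlap, with B2 higher and Alu and ID lower in the treated cells. The B4 family had 19.6% and 20.1% against 17.8% and 19.4%, also without overlap. Shares sum to 100%, so a higher B2 share goes with lower shares elsewhere, and in normalized counts the Alu and ID families overlapped between the same conditions. Of the 35 subfamilies, 7 had higher and 19 lower shares of SINE counts in both KO/UNC libraries than in both WT libraries. In normalized counts, 3 of the 35 were higher and 0 lower in this way, and 43.3% of all features did not overlap in either direction. Shares of SINE counts are another measure, for which no background over all features was computed. The separation of 2 libraries from 2 is therefore given as a description. The MIR family had 4.14% and 4.50% against 3.94% and 4.14%, where the nearest values were equal to 3 digits.

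The B2 members with the larger differences in share were B2_Mm1a and B2_Mm1t. B2_Mm1a took 3.44% and 4.28% of SINE counts in WT cells, 6.16% and 4.38% in UNC cells, 5.15% and 3.01% in KO cells, and 7.12% and 5.80% in KO/UNC cells. The 95% Wilson intervals were narrow, for example 4.21% to 4.35% in WT replicate 2 and 5.73% to 5.88% in KO/UNC replicate 2, but they cover counting error only and reads are not independent molecules. KO replicate 2 had the lowest share of the 8 libraries and KO/UNC replicate 1 the highest. B2_Mm1t took 3.23% and 3.79% in WT cells and 5.56% and 4.98% in KO/UNC cells. B3, in contrast, took 10.9% and 10.6% in WT cells and 10.1% and 10.4% in KO/UNC cells. Of the Alu family, PB1D10, an old proto-B1 subfamily, had 4.37% and 4.24% in WT cells against 3.60% and 3.61%, whereas B1_Mus1 had 6.47% and 6.31% against 6.97% and 6.81%. PB1D10 was chosen after its values were seen.

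**Figure D5:**
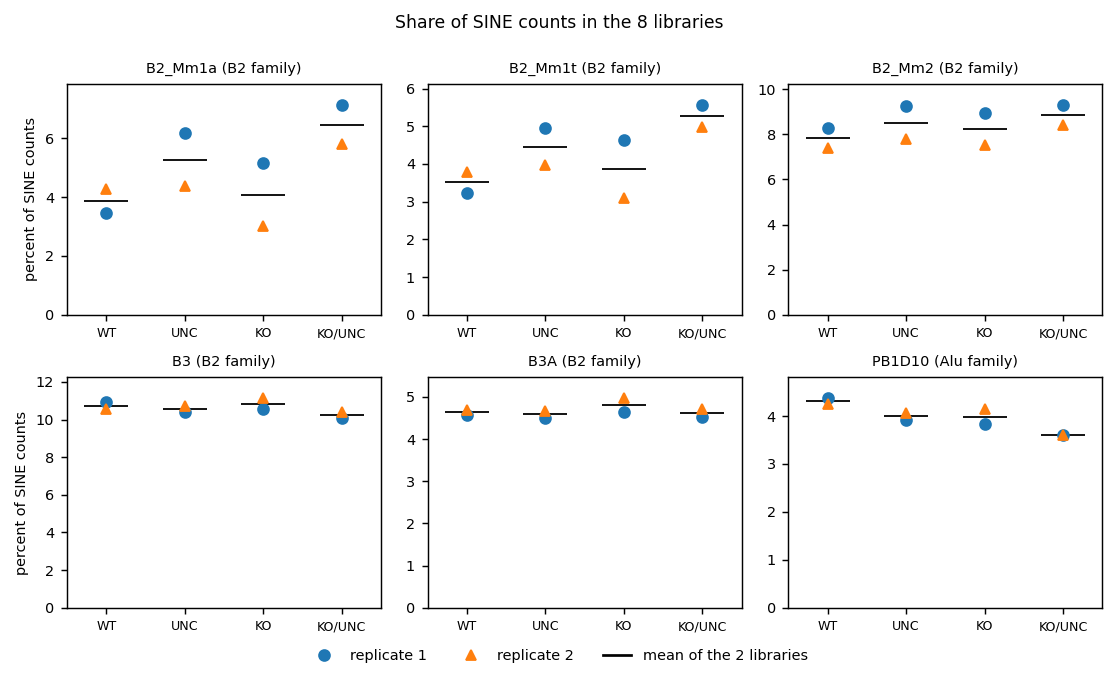
Percent of all SINE counts (y axis, from 0) taken by the 5 B2 family members and PB1D10 in the 4 conditions (x axis), with replicate 1 as circles, replicate 2 as triangles and their mean as a line. B2_Mm1a and B2_Mm1t lie higher in KO/UNC cells, at 7.12% and 5.80% and at 5.56% and 4.98%, than in WT cells, while B3 and B3A stay near one level.

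When the scaling was computed from SINE subfamilies only, so that a fold change is relative to the other SINEs, B2_Mm1a had a log2 fold change of 0.85 between KO/UNC and WT cells (unadjusted p = 0.0637 in edgeR). With the replicate block it was 0.81 (unadjusted p = 0.0249), and the adjusted p of 0.0832 missed the threshold. In that scaling 16 of 35 subfamilies were above 0 and the SINE median was -0.036.

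Genes of the machinery that transcribes SINEs were followed beside the elements. Of 24 genes for RNA polymerase III and its factors, all were tested and 0 were called higher or lower in any comparison by edgeR or by edgeR with the block, and 0 had an unadjusted p under 0.05 without the block. With the block 5 had one between KO/UNC and WT cells, a smaller share than the 33.7% of all features, and they were Gtf3c1, Polr3f, Gtf3c6, Polr3k and Polr3g. The median log2 fold change of the 24 genes between KO/UNC and WT cells was 0.018. The members with the smallest p were Gtf3c1, the TFIIIC subunit that contacts the internal promoter, at -0.77 (SE 0.40, adjusted p = 0.363), and Polr3f, a polymerase subunit, at 1.07 (SE 0.57, adjusted p = 0.380). With the block they had -0.80 (adjusted p = 0.0847) and 0.92 (adjusted p = 0.0889). Gtf3c1 had 141 and 174 normalized counts in WT cells and 116 and 68.5 in KO/UNC cells, which did not overlap. Of all features, 43.3% did not overlap in either direction between these conditions. Neither gene was called.

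Of 12 genes for proteins that bind, edit or cut SINE RNA, 0 were called by either fit, and the 1 with an unadjusted p under 0.05 in this comparison without the block (3 with it) was Adarb1, which encodes an RNA-editing enzyme. Adarb1 had 14.5 and 17.0 normalized counts in WT cells and 7.79 and 4.85 in KO/UNC cells, and its log2 fold change was -1.33 (SE 0.55, adjusted p = 0.241). Dicer1, which encodes the nuclease that cuts double-stranded RNA, had -0.80 (SE 0.55, adjusted p = 0.513). With the block Adarb1 had -1.32 (adjusted p = 0.0731) and Dicer1 -0.97 (adjusted p = 0.0695). The ChAHP complex and CTCF compete at B2 elements in mESCs. Followed here were 6 genes for ChAHP subunits, HP1 proteins and CTCF, namely Adnp, Chd4, Cbx1, Cbx3, Cbx5 and Ctcf. Of these, 0 were called or had an unadjusted p under 0.05 in any comparison, in either edgeR fit. Ctcf had a log2 fold change of 0.44 (SE 0.49, adjusted p = 0.734) and Cbx5 of 0.39 (SE 0.65, adjusted p = 0.831) in the same comparison. Between KO/UNC and WT cells 4.11% of all features were called, and 17.2% with the block. An unadjusted p under 0.05 was found for 18% of all features, and for 33.7% with the block. The 1 and 3 of 12 genes above were smaller shares than these. Shares of all features in the other comparisons are given with those comparisons above.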

How the data were processed

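RNA-seq counts of genes and transposable element subfamilies from 8 mESC libraries were analysed. The authors trimmed reads with Trim Galore 0.3.7, aligned them to GRCm38/mm10 with TopHat2 and deposited TEtranscripts counts made with default parameters, which share multi-mapped reads among subfamilies, so close relatives can exchange counts. The counts do not give the positions of copies. Groups and replicate numbers came from the labels, and the study calls its replicates biological.

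Genes and subfamilies were tested together in edgeR 4.0.16 under R 4.3.3 (quasi-likelihood F test, filterByExpr with a minimum count of 10 and total of 15, TMM, all 8 libraries, Benjamini-Hochberg adjustment). TMM factors were 0.810 to 1.20. Families and the SINE class were summed and fitted with the genes at the same library sizes. Intervals are 95%. DESeq2 1.42.0, other scalings, no filter, the replicate block, only the compared libraries and leaving out each library were alternatives, and SINE-only scaling and within-replicate ratios were added after seeing the data. Across genes, deviations of same-numbered libraries from their condition means correlated at 0.285 to 0.663 in the 6 pairs of conditions, so the numbers were taken to pair the libraries. The code was tested on simulated data. Subfamilies named with values were, in each family, the one with the highest mean and, in each comparison, up to 3 with the smallest p in each direction, plus those said to be chosen later. Listed genes named were the 2 per list with the smallest p in KO/UNC against WT cells. Members and lists were chosen with earlier results of these data known. Figures were drawn with matplotlib 3.10.9.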

Additional observations from a re-analysis of the deposited data

How the results depend on the processing

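The count of 0 SINE subfamilies called, in either direction, held in all 6 comparisons under each of the 18 alternatives (17 for the interaction). The replicate block changed no other call among SINEs and reversed none of the 56 values followed, and neither did leaving out the expression filter or, where it could be fitted, using only the 4 libraries compared. Signs of uncalled values depended on the scaling. With factors from transposable element subfamilies only, the SINE class had log2 fold changes of -0.18 (UNC minus WT cells), -0.44 (KO minus WT), -0.68 (KO/UNC minus WT) and -0.50 (KO/UNC minus UNC). In that scaling 3, 28 and 14 subfamilies had an unadjusted edgeR p under 0.05 and lay lower in the last 3 of these, with 0 called. The share of all features at that p was not computed for this scaling. The median over all features in these comparisons was -0.87, -1.06 and -0.72, below the SINE median of -0.48, -0.83 and -0.58. A lower value here was therefore not particular to SINEs. In the same scaling the comparison of UNC with WT cells gave -0.23 for the Alu family, -0.047 for B2, -0.25 for B4, -0.33 for ID and -0.24 for MIR. That of KO with WT gave -0.47 for Alu, -0.38 for B2, -0.45 for B4, -0.25 for Deu, -0.54 for ID and -0.46 for MIR, and -0.14 for AmnSINE1, -0.36 for the B4 subfamily and -0.31 for B2_Mm1t. That of KO/UNC with WT gave -0.78 for Alu, -0.47 for B2, -0.78 for B4, -0.35 for Deu, -0.97 for ID and -0.78 for MIR, and -0.095 for B2_Mm1t and -0.27 for AmnSINE1. B2_Mm1a kept its sign in that comparison under all 18 alternatives, but its lowest value among them was 0.062. The factors of this scaling were computed over all 932 tested transposable element subfamilies, of which 571 were LTR and 144 LINE subfamilies. A fold change in it is relative to these subfamilies together.

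With factors from SINE subfamilies only, chosen after seeing the data, the first comparison gave -0.00768 for B4, -0.088 for ID and -0.00156 for MIR, and ID had -0.075 and -0.18 in the second and the third. With the block as well these were -0.00756, -0.088, -0.00145, -0.075 and -0.18. The SINE class had 0.077 (0.078 with the block) between KO/UNC and KO cells and 0.016 (0.018) for the interaction. Total counts gave -0.12 for ID in the third comparison and -0.037 for the class between KO/UNC and UNC cells. Factors from genes only gave 0.0017 for ID2 in the first comparison, 0.041 for AmnSINE2 in the second, and 0.058 for ID2 and 0.073 for MIR3 in the third. MIR3 had 0.012 with RLE factors and 0.0097 in DESeq2 in the third comparison.

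Leaving out 1 library at a time, with the lone library assumed to vary like the other groups, gave ranges across 0 for many of the values followed. For the SINE class they were -0.29 to 0.59, -0.013 to 0.82 and -0.022 to 0.73 in the 3 comparisons with WT, -0.49 to 0.40 and -0.25 to 0.68 for KO/UNC against KO and against UNC cells, and -0.72 to 0.21 for the interaction. In the first comparison they were -0.33 to 0.55 for Alu, -0.25 to 0.79 for B2, -0.28 to 0.48 for B4, -0.40 to 0.47 for ID, -0.23 to 0.43 for MIR, -0.078 to 1.29 for B2_Mm1a, -0.0902 to 1.11 for B2_Mm1t, -0.53 to 0.16 for FAM and -0.52 to 0.33 for ID2, while Deu (0.020 to 0.82) and AmnSINE1 (0.034 to 0.74) stayed above 0. In the second they were -0.025 to 0.80 for Alu, -0.052 to 0.95 for B2, -0.026 to 0.73 for ID, -0.17 to 1.22 for B2_Mm1t and -1.27 to 0.76 for AmnSINE2, while the range stayed above 0 for the B4 family (0.054 to 0.77), MIR (0.065 to 0.71), Deu (0.25 to 1.08), AmnSINE1 (0.39 to 1.12) and the B4 subfamily (0.15 to 0.83). In the third they were -0.12 to 0.65 for Alu, -0.052 to 0.60 for B4, -0.27 to 0.47 for ID, -0.0695 to 0.59 for MIR, -0.30 to 0.32 for ID2 and -0.26 to 0.21 for MIR3, while B2_Mm1a stayed between 0.60 and 1.63, B2_Mm1t between 0.51 and 1.402, AmnSINE1 between 0.42 and 1.12, the B2 family between 0.15 and 0.97 and Deu between 0.29 and 1.08. Against KO cells they were -0.086 to 1.53 for B2_Mm1a, -0.21 to 1.18 for B2_Mm1t and -0.59 to 1.28 for AmnSINE2, while ID, ID2 and MIR3 stayed below 0 (ID -0.58 to -0.074, ID2 -0.63 to -0.080, MIR3 -0.52 to -0.015). The cause was not tested. Counting error limits only the Deu family and FAM, since the other SINE subfamilies had at least 458 counts in every library.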
